A study of Vaccinium virgatum with 9 samples.

Results

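In fruit of rabbiteye blueberry a set of 248 genes stood, after potassium sulfate, at 25% or less of their level in fruit of watered plants. This held at each of the 2 timings of potassium, the young fruit stage and flowering. The set was drawn from all 38665 genes of the deposited count table and was chosen by measured values: a mean of at least 10 CPM (library-scaled counts from edgeR's cpm(), with TMM factors) in water, and a mean of at most 25% of the water mean at each timing. It makes up 0.641% of the table and 2.11% of the 11752 genes with at least 10 CPM in water. Because these same contrasts chose the genes, every level set against water below is a description and carries no test. The difference between the 2 timings was not used in the choice, which caps both potassium means but sets no order between them, so that difference was tested.

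RNA was sequenced from 9 fruit libraries in 3 groups of 3: 10 g of potassium sulfate per plant at the young fruit stage, the same amount at flowering, and water alone. All plants were 7-year-old rabbiteye blueberries (Vaccinium virgatum) of a Menditoo × Tifblue cross, grown singly in pots of one substrate that itself contained potassium. Upper-layer fruit was picked 90 days after flowering in every group, with 12 to 18 fruits in a replicate, so the plant stage at treatment cannot be told apart from how long before picking it was given, nor can potassium from sulfate. Nothing in the labels ties replicates to separate plants, so the p-values reflect only how much these libraries varied, in part perhaps for technical reasons.

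Potassium is the main inorganic cation of plant cells, where it maintains turgor, activates many enzymes and accompanies the loading and movement of sugar in the phloem that feeds a growing fruit. Blueberry fruit softens, gathers sugar and turns blue through anthocyanins as it ripens, and the series was set up around anthocyanin production under potassium. The level of a transcript reflects both how fast it is made and how fast it decays, and in whole fruit fewer cells of a kind and less RNA per cell cannot be told apart. The table pairs no identifier with a gene name or function and no annotation was used here, so the roles of the 248 genes are not given, and the labelled tissue could not be checked against markers. Identifiers beginning with Vadar are called Vadar genes and those with the table's other prefix non-Vadar loci, which are described without their identifiers. Members other than those named by identifier go by their rank in water CPM. CPM is not corrected for gene length, so this rank orders the members by reads and not by number of transcripts.

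Library totals ran from 15655016 to 18424967 counts, and no 2 libraries of a group looked like one library deposited under 2 names, with a chi-square per degree of freedom of 2.69 to 6.28 between replicates, above the value near 1 of plain sampling. All 248 members passed the filter on low counts.

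Together the members took 0.362, 0.343 and 0.340% of all counts in the libraries of potassium at young fruit, 0.387, 0.386 and 0.408% in those of potassium at flowering, and 2.77, 2.82 and 2.80% in water. The summed CPM of the set thus stood at 13.6% of water at young fruit and at 15.3% at flowering. A few genes dominate that sum. The first member by water CPM supplied 26.9% of the set's CPM at young fruit, 33.2% at flowering and 20.7% in water, and the first 5 together supplied 51.5, 59.7 and 44.5%.

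**Figure D1:**
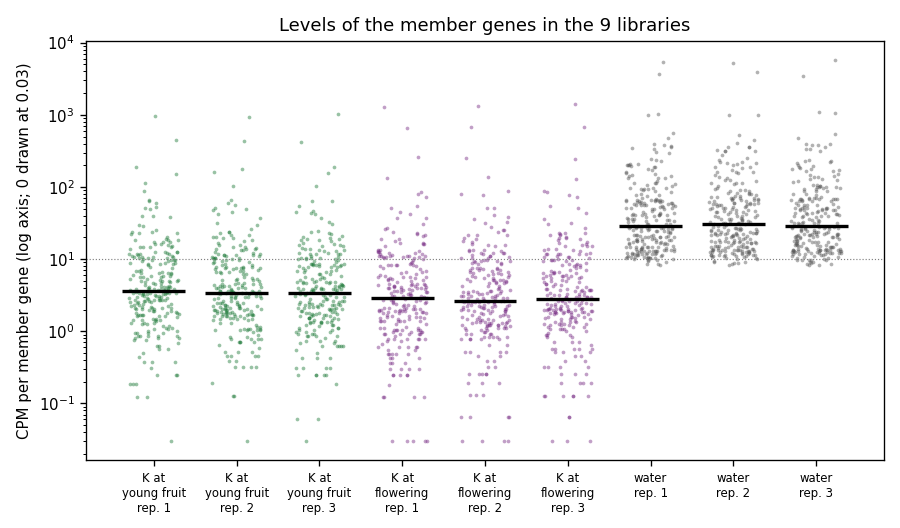
Each point is the CPM of 1 of the 248 member genes in 1 library (log axis), with the median as a bar and a dotted line at 10 CPM, the least mean that the choice of members asked for in water. The medians lie between 3.41 and 3.59 CPM in the libraries of potassium at young fruit, between 2.66 and 2.87 CPM in those of potassium at flowering, and between 29.1 and 30.8 CPM in water, and the cloud reaches below 1 CPM in the potassium libraries only.

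The usual member was low rather than silent after potassium. Its level had a median of 3.44 CPM (quartiles 1.68 and 9.23) at young fruit, 2.78 CPM (1.28 and 7.64) at flowering and 30.1 CPM (15.2 and 66.8) in water. Relative to water, the median member kept 12.8% at young fruit and 10.4% at flowering, where the median of all genes with at least 10 CPM in water was 104% and 105%. By the higher of its 2 potassium means, 142 of the 248 members kept more than 12.5% of the water level, 58 of them more than 20%. At the other end, 42 kept at most 6.25%, 19 at most 3.125%. The description "nearly shut off" therefore fits a minority, and the set is best called by its rule, genes at 25% of water or less at both timings.

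Transcripts of nearly all members were still counted after potassium. At young fruit 32 members averaged under 1 CPM and at flowering 45, of which 25 were under 1 CPM at both timings, while 45 stayed at 10 CPM or more at both. Each library of potassium at young fruit had 1 member at 0 counts, and those of potassium at flowering had 3 to 5. No member was at 0 in all libraries of potassium at young fruit, and 2 were at 0 in all libraries of potassium at flowering, where 0 counts allow up to 3 counts over the group, or 0.0633 CPM, for counting error alone.

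In every member the lowest water library lay above the highest of the 6 potassium libraries, by a factor of 2.44 or more. Among the 25728 genes tested, 21.2% had the lowest water library above the highest potassium library by any factor. Of the same genes edgeR's quasi-likelihood test called 25.7% lower than water at young fruit and 24.4% lower at flowering. All 248 members were called lower at both timings, which their choice brings about and which is no further evidence.

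Libraries that took no part in the choice gave similar levels. The rule was applied to the 6 libraries of 2 replicate numbers at a time, and the chosen genes were then read in the 3 libraries of the remaining number. With number 1 left out, 248 genes were chosen, and in the unused libraries their median was 13.1% of water at young fruit and 10.2% at flowering. With number 2 left out, the medians of 235 genes were 12.8% and 10.5%, and with number 3 left out those of 242 genes were 11.8% and 11.1%. In the unused libraries 215 of 248, 208 of 235 and 218 of 242 genes were again at 25% of water or less at both timings, and all were below water at both. The highest level reached by any of them was 40.5% of water. With 1 unused library a group, these values have no test.

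The choice has edges. The 5 members nearest to the 25% limit kept 24.5 to 24.9% of water at their higher timing, and they include the member with most reads. The 5 genes next outside it kept 25.1 to 25.6%. The 5 members nearest to the limit on water level averaged 10.0 to 10.4 CPM in water, and the 5 genes next below it 9.50 to 9.91 CPM.

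Vadar_g2639.v1.2, the member with the highest CPM in water, had 959, 927 and 1018 CPM after potassium at young fruit, 1301, 1339 and 1396 CPM after potassium at flowering, and 5314, 5252 and 5807 CPM in water. The 3 groups do not overlap, and at flowering the gene sat just under the limit, at 24.6% of water, against 17.7% at young fruit. Between the timings it was lower at young fruit by a log2 difference of -0.47 ± 0.05 (SE, edgeR adjusted p = 3.53e-08). A non-Vadar locus came next, with 448, 439 and 414 CPM at young fruit, 649, 673 and 675 CPM at flowering, and 3675, 3921 and 3474 CPM in water. It too was lower at young fruit than at flowering, with a log2 difference of -0.62 ± 0.05 (edgeR adjusted p = 3.90e-10).

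The members that follow did not share one order of the timings. Rank 3 had 189, 177 and 191 CPM at young fruit, 259, 253 and 242 CPM at flowering and 1000, 1007 and 1079 CPM in water, the same order as the first 2. Rank 4 had it turned round, with 151, 160 and 157 CPM at young fruit, 133, 136 and 129 CPM at flowering and 1035, 979 and 1061 CPM in water. Both differences between timings passed the threshold, with log2 values of -0.44 ± 0.05 and 0.23 ± 0.05 (edgeR adjusted p = 4.60e-07 and 0.00119).

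Rank 5 parted the timings most among these. It had 112, 103 and 103 CPM at young fruit, 20.7, 21.9 and 23.1 CPM at flowering, and 558, 529 and 548 CPM in water. It thus kept 19.5% of water at young fruit and 4.02% at flowering, a log2 difference of 2.28 ± 0.06 (edgeR adjusted p = 9.95e-18). Rank 10, a non-Vadar locus, did the reverse, with 13.9, 13.6 and 13.9 CPM at young fruit, 41.8, 38.4 and 35.9 CPM at flowering, and 380, 362 and 362 CPM in water. Its log2 difference of -1.48 ± 0.07 (edgeR adjusted p = 2.61e-13) came from replicates that lie close together in each group.

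Rank 9 showed no difference that the test could call. It had 53.4, 48.7 and 54.4 CPM at young fruit and 51.0, 51.9 and 53.9 CPM at flowering, against 363, 359 and 389 CPM in water, and its timings overlap (log2 difference 0.00 ± 0.06, edgeR adjusted p = 0.996). Of the 10 members with the highest CPM in water, 3 were higher and 6 lower at young fruit than at flowering, where 10.4% and 9.24% of all genes tested were. Calls are frequent among genes with many counts. Of all genes averaging 100 CPM and over after potassium, as the first 4 of these members do, 46.0% were called in one direction or the other. Of all genes at 10 to under 100 CPM, where the rest of the 10 lie, 26.3% were.

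**Figure D2:**
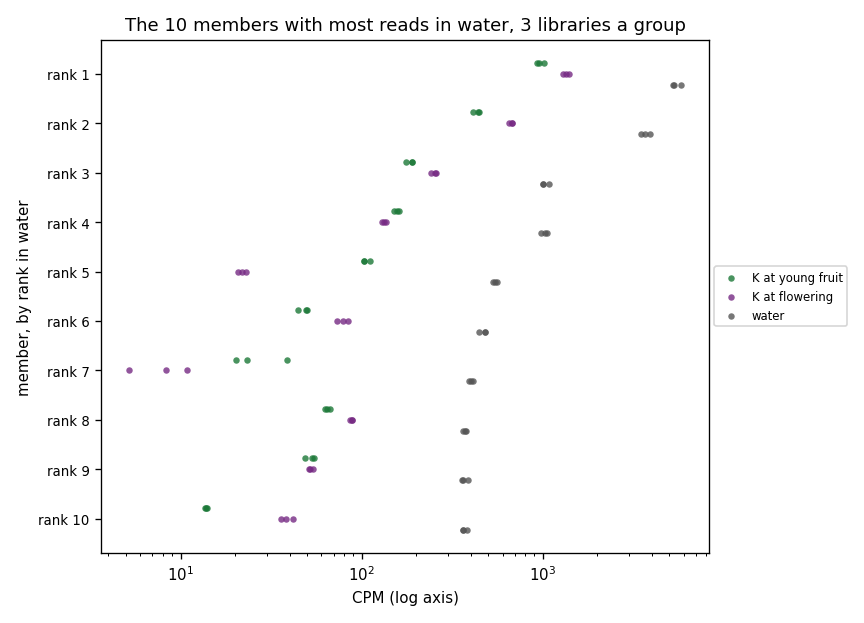
CPM (log axis) of the 10 members with the highest CPM in water, 1 point per library, 3 libraries a group. The water points stand far to the right in each row, and the 2 potassium groups change order between rows: young fruit is left of flowering in ranks 1 to 3, right of it in ranks 4, 5 and 7, and level with it in rank 9.

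The members that kept least of their water level held few counts after potassium. Rank 102 had 0.312, 0.322 and 0 CPM at young fruit and 0.122, 0.260 and 0.256 CPM at flowering, against 43.5, 40.2 and 43.0 CPM in water. That was 10 counts over the young fruit libraries and 10 over the flowering libraries, 0.500% and 0.503% of the water level. Rank 29 is better measured, with 48 counts at young fruit and 57 at flowering. It had 0.935, 0.772 and 1.300 CPM at young fruit and 0.977, 1.36 and 1.28 CPM at flowering, against 147, 160 and 168 CPM in water. Neither differed between the timings past the threshold (edgeR adjusted p = 0.998 and 0.592).

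The 2 members at 0 in every flowering library were rank 106 and rank 185. Rank 106 had 0.748, 0.450 and 0.557 CPM at young fruit, 28 counts in all, and 36.2, 30.4 and 48.0 CPM in water, and it was at least 603-fold lower at flowering than in water. Rank 185 had 0.187, 0.322 and 0.186 CPM at young fruit, 11 counts in all, and 13.1, 16.5 and 16.04 CPM in water, and was at least 241-fold lower at flowering. After potassium both hold too few counts to pass the filter by themselves, and they entered the test between timings only through their water libraries.

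Between the timings, a larger share of members than of genes at large was higher after potassium at young fruit, while the share that was lower lay near that of genes at large. Relative to potassium at flowering, 64 of the 248 members (25.8%) were higher at young fruit, where 10.4% of all genes tested were and 14.7% of those with at least 10 CPM in water. Another 29 (11.7%) were lower at young fruit, where 9.24% of all genes were and 14.5% of those with at least 10 CPM in water, so that share lay between the 2 bases. In either direction 37.5% of members were called, against 19.6% and 29.2%. Of the members, 20 passed the filter on low counts only through their water libraries, and they hold 5 of the 64 and none of the 29. A fit to the 6 potassium libraries alone, which leaves those 20 out, called 48 of 228 members higher (21.1%) and 23 lower (10.1%), where 11.9% and 10.5% of all genes in that fit were called. These shares are set beside each other as a description, without a test of the set. The other 155 members did not pass the threshold, which does not show that their timings were equal.

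Libraries that do not overlap gave a like division. In 77 members (31.0%) every young fruit library was above every flowering library, where 17.2% of all genes tested met that condition. In 36 (14.5%) every one was below, where 17.0% did. The 20 members that passed the filter only through water hold 8 of the 77 and none of the 36. Of the 228 members that pass it in the potassium libraries alone, 69 were wholly above and 36 wholly below. Among the 64 called higher the median log2 difference was 1.32, and 40 differed at least 2-fold, 5 of which passed the filter only through water. Among all 2676 genes called higher the median was 0.59, and 753 differed at least 2-fold. Among the 29 members called lower the median was -0.61, and 4 differed at least 2-fold. Among all 2377 genes called lower the median was -0.43, and 388 differed at least 2-fold. Over all 248 members the median log2 difference, young fruit minus flowering, was 0.20 (quartiles -0.20 and 0.73), and over all genes tested it was 0.00 (-0.21 and 0.23). With the 2 members at 0 at flowering set to their lower bound, the medians of 1.32 and 0.20 were the same.

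The shares higher and lower at young fruit were also set beside those of genes at a like potassium level. Of the 162 members averaging 1 to under 10 CPM over the 2 potassium groups, 26.5% were higher and 10.5% lower, against 7.52% and 5.96% of all 10033 genes. Of the 49 members at 10 to under 100 CPM, 22.4% were higher and 16.3% lower, against 13.8% and 12.5% of all 9275 genes. Of the 4 members at 100 CPM and over, 1 was higher and 3 lower, against 21.4% and 24.7% of all 2150 genes. The 33 members under 1 CPM are not set beside other genes, since 20 of them entered the test only through water.

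The sum and the median member gave opposite orders of the timings. The set's share of all counts averaged 0.348 ± 0.012% at young fruit and 0.394 ± 0.012% at flowering (SD, n = 3 each), and no library of one group reached the other (exact two-sided permutation p = 0.1, the smallest that 3 against 3 allows, adjusted p = 0.2 over 2 shares). Without the 5 members with the highest CPM in water it averaged 0.169 ± 0.011% at young fruit and 0.159 ± 0.007% at flowering, and the libraries overlapped (exact permutation p = 0.2, adjusted p = 0.2).

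**Figure D3:**
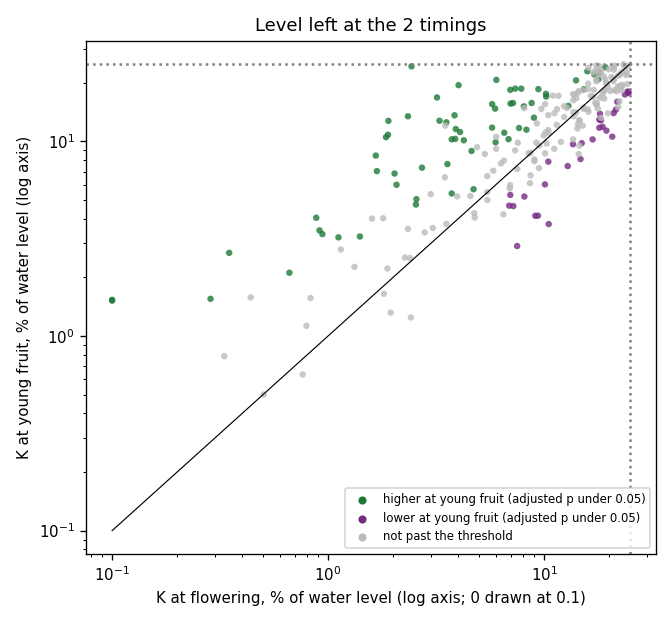
Level left after potassium at young fruit (vertical) against that after potassium at flowering (horizontal), each as a percentage of the water mean on a log axis, 1 point per member. The dotted lines are the 25% limits that chose the members and the solid line marks equal levels. The 64 members higher at young fruit by edgeR's test lie above the line and spread far to the left, and the 29 lower at young fruit lie below it and mostly near the upper right corner.

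Among Vadar members with at least 10 counts in each potassium group, the largest differences toward young fruit belonged to Vadar_g16673.v1.2 and Vadar_g42219.v1.2. Vadar_g16673.v1.2 had 22.9, 15.6 and 15.8 CPM at young fruit, 1.28, 0.520 and 3.65 CPM at flowering, and 77.6, 74.9 and 71.2 CPM in water. It kept 24.3% of water at young fruit and 2.44% at flowering, a log2 difference of 3.32 ± 0.26 (edgeR adjusted p = 1.31e-09). Vadar_g42219.v1.2 had 4.05, 1.74 and 1.55 CPM at young fruit, 0.122, 0.130 and 0.704 CPM at flowering, and 86.8, 83.8 and 104 CPM in water, a log2 difference of 2.93 ± 0.47 (edgeR adjusted p = 6.32e-05). In both genes flowering replicate 3 was the highest of its group, and without it the differences were 4.30 and 4.21.

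Other members with large differences in this direction were more even between replicates. Rank 48 had 12.3, 11.0 and 12.2 CPM at young fruit and 2.01, 2.08 and 1.22 CPM at flowering, against 93.3, 105 and 80.9 CPM in water. Rank 58 had 7.61, 6.89 and 7.18 CPM at young fruit and 0.732, 1.56 and 1.54 CPM at flowering, against 67.0, 71.5 and 67.8 CPM in water. Their log2 differences were 2.74 ± 0.17 and 2.51 ± 0.18 (edgeR adjusted p = 1.64e-11 and 2.52e-10). Rank 76 was close to them at 2.39 ± 0.18.

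By contrast, single libraries carried part of the difference in some members. Rank 170, a non-Vadar locus, had 5.11, 1.09 and 1.24 CPM at young fruit and 0.977, 0.0649 and 0.256 CPM at flowering, against 17.3, 23.4 and 14.7 CPM in water. Its log2 difference of 2.48 (edgeR adjusted p = 0.00389) was 1.39 without young fruit replicate 1 (edgeR adjusted p = 0.0796) and 3.89 without flowering replicate 1. Rank 46 had 2.74, 1.03 and 0.619 CPM at young fruit and 0.488, 0 and 0.320 CPM at flowering, against 96.9, 92.9 and 93.2 CPM in water. Its value of 2.39 was 1.56 without young fruit replicate 1 and 3.13 without flowering replicate 1. Rank 46 passed the filter on low counts only through its water libraries, so its call rests on few counts after potassium. Rank 202, at 2.28, was at 3.09 without flowering replicate 1.

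Young fruit replicate 1 was often the highest of its group among the members higher at young fruit. It was highest in 36 of those 64 (56.3%), and in 27.6% of the 1668 other genes with at least 10 CPM in water that were called in the same direction. Without that library 52 members were called higher, 21.0% of the set, where 8.76% of all genes tested were. The part of this library in the difference was otherwise not tested.

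Differences toward flowering were smaller. The largest whose groups do not overlap was that of rank 10, at -1.48, described above. Among Vadar members past the threshold without overlap, the 2 largest follow. Vadar_g33956.v1.2 had 0.935, 1.09 and 0.619 CPM at young fruit, 1.46, 2.66 and 1.86 CPM at flowering, and 20.4, 21.6 and 21.9 CPM in water, a log2 difference of -1.16 ± 0.28 (edgeR adjusted p = 0.00354). Vadar_g31289.v1.2 had 0.873, 0.965 and 1.55 CPM at young fruit, 2.87, 2.34 and 2.24 CPM at flowering, and 26.3, 26.3 and 29.1 CPM in water, a log2 difference of -1.13 ± 0.24 (edgeR adjusted p = 0.00113). The groups do not overlap in either gene, and each holds between 42 and 118 counts per potassium group. Rank 201 was also past the threshold, at -1.36 (edgeR adjusted p = 0.0172), but its groups overlap. Among members past the threshold in this direction whose groups do not overlap, the next 5 had log2 differences of -0.96 to -0.74. One of them, rank 186 at -0.79, sat at the threshold (edgeR adjusted p = 0.0493) and was past it without water replicate 2, water replicate 3 or young fruit replicate 2, but not without any one of the other 6 libraries.

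**Figure D4:**
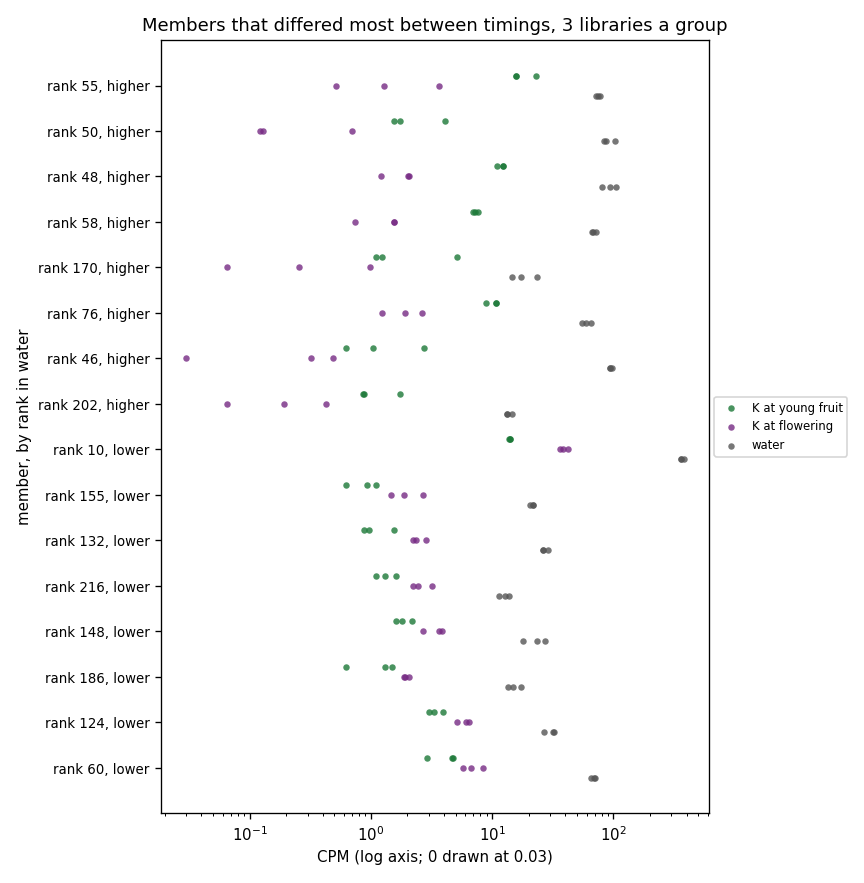
CPM (log axis, 0 drawn at 0.03) of the 8 members most higher and the 8 most lower at young fruit than at flowering, 1 point per library, among members past edgeR's threshold with at least 10 counts in each potassium group and groups that do not overlap. The 2 potassium groups lie further apart in the upper 8 rows than in most of the lower 8, and the spread between flowering replicates is wide in several upper rows. Rank 46, in the upper rows, passed the filter on low counts only through its water libraries.

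Replicates of the members were less even after potassium than those of other genes. The range over the 3 libraries divided by their mean had a median of 0.362 at young fruit, 0.362 at flowering and 0.150 in water, while for the other genes with at least 10 CPM in water it was 0.116, 0.102 and 0.121. The members hold fewer counts after potassium, and how much of the wider spread comes from low counts was not tested.

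The members were spread over the range of water levels. They were 123 of the 5383 genes at 10 to under 30 CPM in water (2.28%), 83 of the 4488 at 30 to under 100 CPM (1.85%), 29 of the 1501 at 100 to under 300 CPM (1.93%) and 13 of the 380 at 300 CPM and over (3.42%). By prefix, 227 were Vadar genes and 21 non-Vadar loci. Non-Vadar loci thus made up 8.47% of the members, 9.96% of the genes with at least 10 CPM in water and 26.8% of the whole table.

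Members with neighbouring identifier numbers were more common than members at large. Among Vadar genes with at least 10 CPM in water, 2.15% were members, whereas of 159 genes at that water level whose number was 1 away from a member's, counted once per such neighbour, 24 (15.1%) were members themselves. This made 12 pairs among 22 genes. The labels do not say whether identifier numbers follow the order of genes along chromosomes, and near-identical copies in a polyploid can share reads in counting, so neighbours may not be independent measurements.

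Neighbours did not always share an order of the timings. In 6 of the 12 pairs both genes were called higher at young fruit, and in 2 the genes were called in opposite directions. Of all genes tested 10.4% were called higher and 9.24% lower. The pair of ranks 106 and 50 is among the 6, and rank 106 entered the test only through its water libraries. Over all 248 members 64 were called higher and 29 lower. By fitted value alone 151 were higher at young fruit and 97 lower, and 8 of the 12 pairs had both genes on one side. Whether neighbours share an order more often than other members was not tested. One of the opposite pairs was rank 48, described above, and rank 89, which had 8.61, 9.14 and 6.62 CPM at young fruit, 9.22, 12.2 and 11.9 CPM at flowering and 56.3, 48.0 and 48.3 CPM in water (log2 difference -0.45 ± 0.14, edgeR adjusted p = 0.0202). The call on rank 89 was lost without flowering replicate 2, flowering replicate 3 or young fruit replicate 3 (edgeR adjusted p = 0.0976, 0.0867 and 0.138).

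One of 2 runs of 3 consecutive numbers, ranks 56, 65 and 36, was called higher at young fruit throughout. Rank 36 had 8.79, 3.35 and 3.03 CPM at young fruit, 0.916, 1.299 and 1.09 CPM at flowering and 151, 135 and 88.2 CPM in water. The log2 differences of the 3 genes were 1.82 ± 0.36, 1.90 ± 0.28 and 2.20 ± 0.42. Without flowering replicate 1 rank 65 was at 2.55, and without young fruit replicate 1 rank 36 was at 1.53. The other run, ranks 71, 52 and 22, was also called higher throughout and is part of the group described next. The pairs within both runs are among the 6 pairs counted above.

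The densest group, singled out after its values were seen, had 6 members within 50 identifier numbers, where no separate stretch of that width had more than 4. They were 6 of the 10 genes with at least 10 CPM in water between the first and last of them. All 6 were called higher at young fruit than at flowering, rank 185 only because its water counts let it pass the filter. Rank 7 had 38.5, 23.4 and 20.3 CPM at young fruit, 8.36, 5.19 and 10.9 CPM at flowering, and 390, 413 and 400 CPM in water. Rank 12 had 59.5, 44.7 and 30.4 CPM at young fruit, 11.9, 9.61 and 16.6 CPM at flowering, and 334, 319 and 336 CPM in water.

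The other members of that group followed at lower levels. Rank 22 had 29.0, 23.9 and 17.8 CPM at young fruit, 15.3, 7.60 and 11.6 CPM at flowering and 206, 173 and 221 CPM in water. Rank 52 had 9.48, 6.69 and 6.19 CPM at young fruit, 4.94, 2.53 and 4.10 CPM at flowering and 79.2, 74.7 and 96.6 CPM in water. Rank 71 and rank 185 were near the floor after potassium. For the 5 genes with counts at flowering the log2 differences ran from 0.95 to 1.82, and that of rank 71 (1.65, edgeR adjusted p = 0.0381) was not past the threshold without any one potassium library other than young fruit replicate 2. The 4 genes between them that were no members stood at 51.1 to 135% of water at young fruit and at 85.0 to 122% at flowering, so the low level was not shared by every gene in the stretch.

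**Figure D5:**
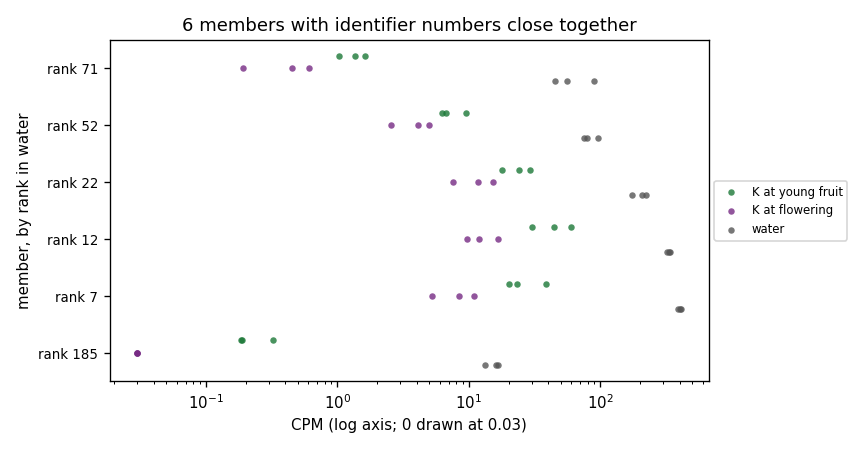
CPM (log axis, 0 drawn at 0.03) of the 6 members whose identifier numbers lie within 50 of one another, 1 point per library, from the lowest number at the top to the highest at the bottom. In all 6 rows the 3 young fruit libraries lie right of the 3 flowering libraries and left of the 3 water libraries.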

How the data were processed

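The authors deposited 1 table of raw gene counts, all whole numbers, with a column for each library. Per the submitters' processing notes HISAT2 2.1.0 and StringTie 1.3.4d were used, while the sources used here name no counting tool, genome build, annotation or strand setting. Counts made through a transcript assembler can be rounded estimates. The groups were read from the sample titles.

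Member genes were chosen from CPM with edgeR's TMM factors over all 38665 rows. The members and lists were chosen with earlier results of these data known. Genes were then filtered with filterByExpr (minimum count 10, minimum total 15), and edgeR 4.0.16's quasi-likelihood test in R 4.3.3 used all 9 libraries, with a coefficient for each group and no block. P-values were adjusted by Benjamini-Hochberg over the 25728 genes tested, with a threshold of 0.05. The SE of a log2 difference is its size over the square root of F. The test was tried on simulated data. Identifiers are printed for the highest member in water and, between timings, for the 2 Vadar members most higher and the 2 most lower among those past the threshold with at least 10 counts in each potassium group and groups that do not overlap. The other members described are ranks 1 to 10, those that kept least, those at the limits and up to 8 a direction between timings. Members with neighbouring numbers were described after their values were seen. No gene list could be matched to identifiers, so none was tested. Alternatives used DESeq2 1.42.0, limma 3.58.1 with voom weights, other scalings, filters and limits, and each library left out.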

Additional observations from a re-analysis of the deposited data

Results flagged for a closer look

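Some members stood out because their low level after potassium was not the same at both timings, which edgeR's fit tested by setting young fruit against flowering. Of the 248 members, 64 (25.8%) were higher at young fruit than at flowering and 29 (11.7%) were lower. Of all genes tested 10.4% were higher and 9.24% lower, and of those with at least 10 CPM in water 14.7% and 14.5%. The share that was lower thus lay between those 2 bases. Beside genes at a like potassium level it was higher. At 1 to under 10 CPM 10.5% of members were lower, against 5.96% of all genes. At 10 to under 100 CPM 16.3% were, against 12.5%. These shares were not tested.

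Among the members named by identifier, the log2 difference, young fruit minus flowering, was -0.47 for Vadar_g2639.v1.2, 3.32 for Vadar_g16673.v1.2, 2.93 for Vadar_g42219.v1.2, -1.16 for Vadar_g33956.v1.2 and -1.13 for Vadar_g31289.v1.2. In each the 3 libraries of one timing lay wholly on one side of those of the other. For all but Vadar_g2639.v1.2 this was a condition for being named, as was passing the threshold, so it is no further evidence. Of all genes tested 17.2% lay wholly higher and 17.0% wholly lower at young fruit.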

How the results depend on the processing

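The number of members was 106 with a limit of 12.5% in place of 25% of water, 162 with at least 20 CPM in water, and 240 to 248 with any 1 library left out. Without scaling factors it was 288, which included all 248. Leaving out the 5 members with the highest CPM in water changed their share of counts to 0.169% at young fruit, 0.159% at flowering and 1.55% in water, and TMM-scaled totals gave 2.64% in water. With any 1 library left out the share was 0.342 to 0.353%, 0.387 to 0.398% and 2.78 to 2.81%, and 0 members were at 0 at young fruit and 2 at flowering. Among the 106 members under the stricter limit, 34 were higher and 10 lower at young fruit, where 10.4% and 9.24% of all genes tested were. The 34 include the 5 called members that passed the filter only through water. With any 1 library left out 51 to 68 members were higher and 24 to 29 lower. Of all genes tested in those fits 7.82 to 10.5% were higher and 6.69 to 9.72% lower. The median log2 difference of the members was then 0.15 (without young fruit replicate 1) to 0.21. A fit to the 6 potassium libraries alone, which tested 228 members, gave a median of 0.13. It called 48 members higher and 23 lower, where 11.9% and 10.5% of all genes in that fit were. DESeq2 shared 92 of the 93 calls between timings and limma with voom weights 66, and none of the settings run turned the direction of a gene named by identifier. Same-numbered libraries did not deviate together (correlations -0.04 to 0.05, with 3 of 9 libraries closest to their own number in both other groups). With a replicate block 69 members were higher and 29 lower, where 10.8% and 10.0% of all genes tested were. Depth limits the members under 1 CPM most, where a library holds a few counts.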
